A study of Homo sapiens with 9 samples.

Results

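The ST3GAL genes encode the alpha-2,3 sialyltransferases, and every probe set whose RefSeq identifier matched ST3GAL1, ST3GAL2, ST3GAL3, ST3GAL4, ST3GAL5 or ST3GAL6 was described. All 6 genes were found, on 7 of the 1259 probe sets of the table (927 named genes), because ST3GAL2 had 2. No member was removed by a filter on low values. The RNA came from T84 and Caco-2, established human lines of intestinal epithelium derived from colon carcinoma, and was read on 9 single-colour arrays of glycosylation-related genes. Treated T84 cells had 24 hours of interferon gamma at 100 U/ml (3 arrays). Untreated T84 cells at passage 68 and untreated Caco-2 cells at passage 37, both about 90% confluent, made up the other 6 arrays, 3 for each line. For the treated cells, passage and density are not stated in the labels. No Caco-2 cells received interferon gamma, so its effect was measured in T84 alone. The study asked which glycosylation genes change while a sialylated epitope on a CD44 variant rises in treated T84 cells. Caco-2 served as the epitope-negative line.

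Alpha-2,3 sialyltransferases sit in the Golgi and move sialic acid from its donor, CMP-sialic acid, onto the 3-position of a terminal galactose. The family divides by acceptor. ST3GAL1 and ST3GAL2 act mainly on the galactose of core 1 O-glycans, the short chains that begin on serine and threonine of mucins and of mucin-like stretches such as those of CD44. ST3GAL3, ST3GAL4 and ST3GAL6 cap lactosamine chains. ST3GAL4 and ST3GAL6 favour the type 2 chain, the route to sialyl Lewis x, while ST3GAL3 also uses the type 1 chain, the route to sialyl Lewis a. ST3GAL5 is GM3 synthase, which caps lactosylceramide and opens the ganglioside pathway. In colonic epithelium these caps end the sugar chains of mucins, and sialyl Lewis structures are widely studied in colon cancer.

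ST3GAL4 was the member called within T84 and ST3GAL6 the one with the widest gap between the lines, so sequence before their transcription starts is shown for both. The stretches are 250 bases upstream of RefSeq starts in GRCh38.p14, all on the plus strand, 5′ to 3′. Capitals mark the GC box, GGGCGG on either strand, the core of Sp1-type sites. The expression data do not tell which start was used. For the probe sets, the labels name no genome build.
ST3GAL4 first start, chr11:126355762-126356011: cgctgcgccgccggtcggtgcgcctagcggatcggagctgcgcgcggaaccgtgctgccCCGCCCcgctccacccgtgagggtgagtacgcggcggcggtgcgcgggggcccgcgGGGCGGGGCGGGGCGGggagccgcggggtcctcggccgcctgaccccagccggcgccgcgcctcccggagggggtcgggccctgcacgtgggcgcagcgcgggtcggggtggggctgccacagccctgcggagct
ST3GAL4 second start, chr11:126403166-126403415: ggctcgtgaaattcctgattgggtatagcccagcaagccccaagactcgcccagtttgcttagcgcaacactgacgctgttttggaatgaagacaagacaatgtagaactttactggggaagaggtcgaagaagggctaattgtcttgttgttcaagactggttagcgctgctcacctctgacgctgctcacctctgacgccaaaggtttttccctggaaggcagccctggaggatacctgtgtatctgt
ST3GAL4 last start, chr11:126405837-126406086: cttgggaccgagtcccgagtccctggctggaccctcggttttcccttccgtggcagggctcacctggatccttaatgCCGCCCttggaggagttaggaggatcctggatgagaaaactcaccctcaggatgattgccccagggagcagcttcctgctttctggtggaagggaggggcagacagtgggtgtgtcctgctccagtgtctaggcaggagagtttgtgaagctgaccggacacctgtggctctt
ST3GAL6 first start, chr3:98732012-98732261: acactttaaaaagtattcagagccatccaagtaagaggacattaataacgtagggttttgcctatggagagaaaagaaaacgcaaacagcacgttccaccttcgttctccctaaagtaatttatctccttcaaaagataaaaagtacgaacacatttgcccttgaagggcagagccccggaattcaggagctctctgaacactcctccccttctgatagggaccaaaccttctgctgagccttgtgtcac
ST3GAL6 second start, chr3:98732451-98732700: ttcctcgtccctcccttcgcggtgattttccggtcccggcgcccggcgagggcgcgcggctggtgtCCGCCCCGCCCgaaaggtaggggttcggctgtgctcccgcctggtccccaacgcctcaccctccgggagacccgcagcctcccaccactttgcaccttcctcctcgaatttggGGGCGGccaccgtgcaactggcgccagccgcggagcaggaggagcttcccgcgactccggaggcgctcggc
The starts of ST3GAL4 differ in composition. The first stretch holds 42 CpG dinucleotides and 4 GC boxes and is 82.8% G or C, and 98.6% of the 35116 RefSeq promoters of the same length have fewer CpG. The second and last hold 8 and 6 CpG, against a median of 11 over all promoters. For ST3GAL6, which has 4 starts, the first stretch has 6 CpG and no GC box, and the second has 30 CpG and 3 GC boxes. The third, with 22 CpG and 1 GC box, and the last, with 0 CpG and no GC box, are not shown. Promoters of 4 of the 6 genes were used, with 13 starts. No start of ST3GAL1 or ST3GAL2 was used, which does not mean that reference starts are lacking for them. The 13 starts are therefore a selected part of the family, and the counts and shares here do not cover ST3GAL1 and ST3GAL2. Of the 13 starts, 8 (61.5%) hold a GC box, which 42.6% of all promoters do. The 13 are not independent, since windows of ST3GAL5 overlap and the same GC boxes are counted in more than 1 of them. None of the 13 holds the interferon-linked letters TTCNNNGAA (the GAS motif, in 6.57% of all promoters) or the core of the ISRE, searched as 2 copies of GAAA with 2 bases between them (in 3.02%), on either strand. This says only that these letters are not in these windows.

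Before the results, some facts of the arrays bear on them. Array medians ran from 6.70 to 6.80 log2 units, and correlations across probe sets within groups were 0.987 or more. Treated T84 replicate 3, untreated T84 replicate 3 and Caco-2 replicate 1 deviated from their groups together (correlations of their deviations 0.48 to 0.76), so each call was also made without these 3 arrays. Replicates are numbered in the labels, but nothing says that they were separate cultures. The p-values therefore cover only the array-to-array spread seen here, which may be technical, and 3 arrays a group limit the precision. The treatment label was borne out by CXCL10, an interferon-induced chemokine gene, 34.5-fold higher in treated than in untreated T84 (95% confidence interval 29.5 to 40.4). Of 20 intestinal epithelial markers 7 were measured, with a summed log2 level of 68.2 to 68.9 in treated T84, 67.6 to 68.1 in untreated T84 and 55.4 to 56.8 in Caco-2. Both T84 groups had 6 of the 7 called higher and 1 lower than Caco-2. LGALS4, an intestinal galectin gene, stood at 12.47, 13.01 and 6.91 in the 3 groups. Keratins, EPCAM and villin were not analysed here, so the epithelial label was checked in part only. Of 14 measured leukocyte markers, 12 lay below the array median on all arrays of every group, and their summed log2 level was 77.5 to 78.1 in treated T84, 76.9 to 77.8 in untreated T84 and 76.1 to 77.2 in Caco-2. For 9 fibroblast and endothelial markers the sums were 45.6 to 45.9, 45.3 to 45.8 and 47.1 to 48.3. Of these 9, 7, 7 and 6 lay below the array median on all arrays of the 3 groups. Both T84 groups had 3 of the 9 called lower than Caco-2 and none higher. Their part in the results below was not tested. Less RNA per cell and fewer cells carrying a transcript cannot be told apart in such bulk RNA.

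After interferon gamma 1 of the 7 ST3GAL probe sets, that of ST3GAL4, was lower and none was higher. Over all 1259 probe sets 10.2% passed, 4.37% as higher and 5.8% as lower (limma moderated test, Benjamini-Hochberg adjusted p below 0.05, n = 3 per group). With an unadjusted p below 0.05, 2 ST3GAL probe sets were lower and none higher. Against Caco-2, treated T84 had 4 lower and none higher, beside 45.6% of all probe sets called, 19.4% as higher and 26.2% as lower. The unadjusted counts there were also 4 and none. Untreated T84 had 2 lower and 1 higher than Caco-2, beside 43.7% of all called, 24.2% as lower and 19.5% as higher. The 3 arrays of each group did not overlap for 3, 5 and 5 of the 7 probe sets in the 3 comparisons, beside 27.5%, 53.5% and 49.6% of all probe sets. The comparisons with Caco-2 share the same Caco-2 arrays. The median difference of the 7 probe sets was -0.07, -0.23 and -0.16 log2 units in the 3 comparisons, beside -0.01, 0.02 and 0.02 over all probe sets. Counted in either direction, the 1, 4 and 3 of 7 members called were near these shares of all probe sets, and all 4 of those called in treated T84 against Caco-2 were lower.

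**Figure D1:**
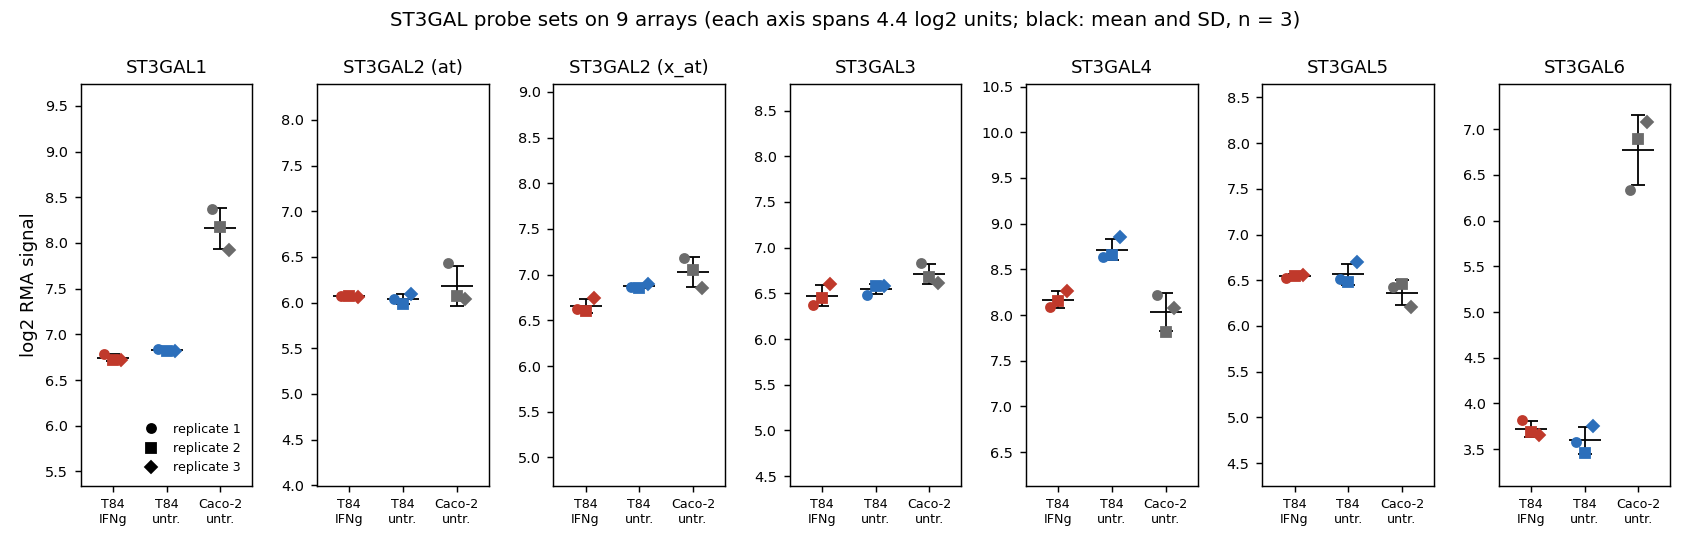
Log2 RMA signal (vertical axes, each spanning the same number of log2 units) of the 7 ST3GAL probe sets on the 9 arrays; symbols are replicates, black lines the mean and SD of 3 arrays. ST3GAL1 and ST3GAL6 stand apart in Caco-2, and ST3GAL4 is highest in untreated T84, where its 3 arrays lie at 8.63, 8.66 and 8.85.

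Among the core 1 enzymes, ST3GAL1 parted the lines. Its log2 signal was 6.79, 6.72 and 6.72 in treated T84 (replicates 1 to 3), 6.84, 6.82 and 6.82 in untreated T84, and 8.37, 8.18 and 7.93 in Caco-2. Every Caco-2 array lay more than 1 log2 unit above every T84 array. The means were 6.74 ± 0.04, 6.83 ± 0.02 and 8.16 ± 0.22 (SD, n = 3 each). Treated T84 was 2.67-fold lower than Caco-2 (95% confidence interval 2.28 to 3.12; limma adjusted p = 4.98e-06, n = 3 per group). Untreated T84 was 2.52-fold lower (2.15 to 2.95; limma adjusted p = 8.99e-06). Caco-2 replicate 1 was the highest of its group, and without it both calls held, at adjusted p values no larger than 9.91e-05 whichever single array was left out.

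Within T84, ST3GAL1 did not pass the test. Treated and untreated arrays of T84 were separated by 0.03 log2 units. The difference was -0.08 ± 0.10 log2 units (SE; 95% confidence interval -0.31 to 0.14; limma adjusted p = 0.789, n = 3 per group). In order of level, ST3GAL1 was highest in Caco-2, and its 2 T84 groups did not differ beyond the error of the fit. That error is shared with the more variable Caco-2 arrays. With only the 6 T84 arrays the SE was 0.036, and the difference still did not pass (limma adjusted p = 0.24). Its probe set is of the kind shared among transcripts, which may include those of other genes.

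ST3GAL2, which shares the core 1 acceptor and also sialylates ganglioside chains, gave 2 readings that differed. The probe set without a cross-hybridisation mark read 6.08, 6.08 and 6.07 in treated T84, 6.04, 5.99 and 6.10 in untreated T84, and 6.43, 6.08 and 6.03 in Caco-2. All 3 groups overlapped, with Caco-2 replicate 1 above the rest. None of its differences passed, the 95% confidence interval of treated against untreated T84 being -0.19 to 0.25.

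The other ST3GAL2 probe set carries the mark for possible cross-hybridisation. It read 6.62, 6.61 and 6.74 in treated T84, 6.86, 6.86 and 6.90 in untreated T84, and 7.19, 7.06 and 6.86 in Caco-2. Treated T84 lay below both other groups without overlap, by at least 0.11 log2 units. It was 1.30-fold lower than Caco-2 (95% confidence interval 1.14 to 1.48; limma adjusted p = 0.00517, n = 3 per group). Against untreated T84 the difference of -0.22 ± 0.08 (SE) did not pass (limma adjusted p = 0.18). It passed when the fit used only the 6 T84 arrays (limma adjusted p = 0.0351) or array weights (limma adjusted p = 0.0201). In untreated T84 against Caco-2 the difference of -0.16 ± 0.08 passed only without Caco-2 replicate 3 (-0.25; limma adjusted p = 0.0161). The 2 probe sets differed in their T84 response by 0.25 log2 units, the marked one being lower (exact permutation test, two-sided, p = 0.1, the smallest that 3 against 3 arrays allow, and 0.1 after Benjamini-Hochberg over 7 pairs of ST3GAL probe sets). That design cannot reach 0.05. So the lower ST3GAL2 signal in treated T84 rests on 1 of 2 probe sets.

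Among the enzymes of lactosamine chains, ST3GAL4 was the member that fell with interferon gamma. Its log2 signal was 8.08, 8.15 and 8.27 in treated T84, 8.63, 8.66 and 8.85 in untreated T84, and 8.22, 7.81 and 8.08 in Caco-2. Untreated T84 lay above both other groups on every array, by at least 0.37 log2 units, and treated T84 overlapped Caco-2. The means were 8.17 ± 0.09, 8.72 ± 0.12 and 8.04 ± 0.21 (SD, n = 3 each). With interferon gamma it fell by 0.55 ± 0.11 log2 units (SE). This is 1.46-fold lower (95% confidence interval from 1.23 to 1.74 and limma adjusted p = 0.0139, n = 3 per group). Untreated T84 exceeded Caco-2 1.60-fold (1.34 to 1.90; limma adjusted p = 0.000988). Treated T84 exceeded Caco-2 by 0.13 log2 units with a 95% confidence interval of -0.12 to 0.38, which did not pass (limma adjusted p = 0.374) and does not show equal levels. With array weights that difference passed, at 0.28 (limma adjusted p = 0.0107).

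The fall of ST3GAL4 was modest and near the threshold. Its call was lost without treated T84 replicate 1 (limma adjusted p = 0.0543), treated T84 replicate 2 (0.0589) or untreated T84 replicate 3 (0.0573), and with the deposited values quantile-normalized again (0.0611). Over all alternatives the adjusted p ran from 0.00177 to 0.0611 and the difference from -0.60 to -0.40. The 3 arrays that deviated together were each the highest of their group for ST3GAL4, by 0.15, 0.20 and 0.28 log2 units over the mean of the other arrays. Without all 3 the difference was -0.53 and passed (limma adjusted p = 0.0242, 2 arrays per group).

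**Figure D2:**
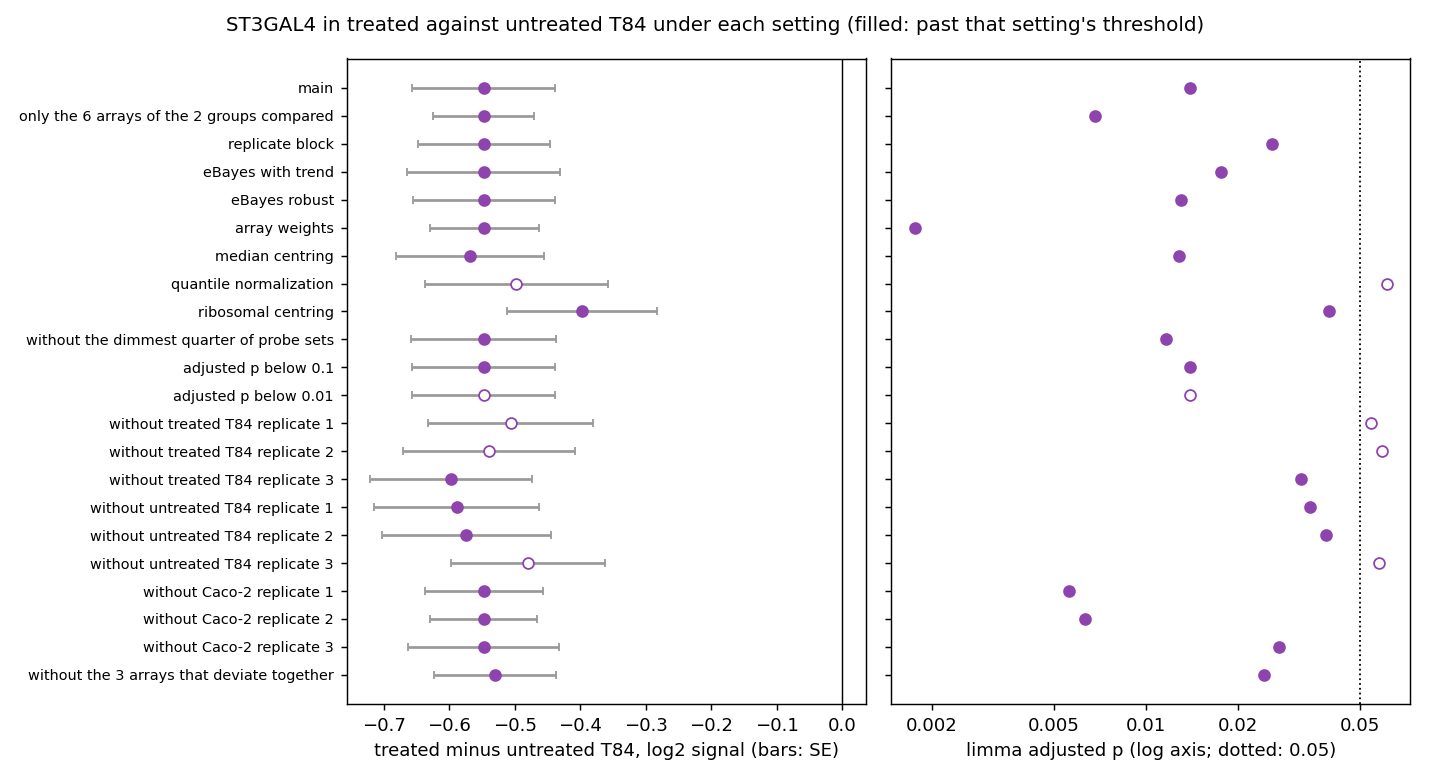
Difference of ST3GAL4 between treated and untreated T84 in log2 signal (left, bars SE) and its limma adjusted p on a log axis (right) under the chosen fit (top line, main) and each alternative; filled points pass the threshold of that setting. All differences are below 0, from -0.60 to -0.40, while 5 settings, including the stricter threshold of 0.01, do not pass.

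ST3GAL6, which caps type 2 chains, showed the largest difference of the family, and it lay between the lines. Its log2 signal was 3.82, 3.69 and 3.65 in treated T84, 3.58, 3.45 and 3.75 in untreated T84, and 6.34, 6.89 and 7.08 in Caco-2. The lowest Caco-2 array lay 2.52 log2 units above the highest T84 array. In T84 these values were among the lowest 5.32% of all probe sets on each array. No detection calls were used here, so the T84 level was not told from background, and the folds against it can stand only as lower bounds on a fold of RNA. Treated T84 was 8.27-fold lower than Caco-2 (95% confidence interval 6.27 to 10.9; limma adjusted p = 1.49e-06, n = 3 per group). Untreated T84 was 9.01-fold lower (6.83 to 11.9; limma adjusted p = 1.38e-06).

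Interferon gamma left no called change in ST3GAL6. The difference was 0.12 ± 0.17 log2 units (SE; 95% confidence interval -0.28 to 0.52; limma adjusted p = 0.826, n = 3 per group). The T84 groups overlapped. Caco-2 replicate 1 was the lowest of its group by 0.64 log2 units. Leaving out single arrays moved the difference of treated T84 from Caco-2 between -3.26 and -2.89. Its probe set is also of the shared kind.

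ST3GAL3 varied little. It read 6.38, 6.45 and 6.60 in treated T84, 6.48, 6.58 and 6.58 in untreated T84, and 6.83, 6.68 and 6.62 in Caco-2. Caco-2 lay above both T84 groups without overlap, but by gaps of only 0.02 and 0.04 log2 units, and the T84 groups overlapped. Treated T84 was 1.18-fold lower than Caco-2 (95% confidence interval 1.04 to 1.33; limma adjusted p = 0.0348, n = 3 per group). Untreated T84 was not past the test (-0.16 ± 0.08, SE; limma adjusted p = 0.132), nor was treated against untreated T84 (-0.07 ± 0.08; limma adjusted p = 0.736). The call against Caco-2 was lost without any one of 6 arrays, treated T84 replicate 1 (0.118), treated T84 replicate 2 (0.0999), untreated T84 replicate 2 (0.0514) or 3 (0.0511), and Caco-2 replicate 1 (0.0834) or 2 (0.0633). Without the 3 arrays that deviated together it passed (0.0234).

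ST3GAL5, the GM3 synthase, varied little. Its probe set, like those of ST3GAL1 and ST3GAL6, is of the kind shared among transcripts, which may include those of other genes. It read 6.52, 6.55 and 6.56 in treated T84, 6.51, 6.48 and 6.69 in untreated T84, and 6.43, 6.46 and 6.21 in Caco-2. Both T84 groups lay above Caco-2 without overlap, by 0.06 and 0.02 log2 units, and overlapped each other. None of its 3 differences passed. Treated against untreated T84 was -0.02 ± 0.08 (SE; 95% confidence interval -0.21 to 0.17; limma adjusted p = 0.956, n = 3 per group). The differences from Caco-2 were 0.18 ± 0.08 in treated T84 (limma adjusted p = 0.111) and 0.20 ± 0.08 in untreated T84 (limma adjusted p = 0.0852). The latter passed when each array was centred on its median (0.24; limma adjusted p = 0.027).

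**Figure D3:**
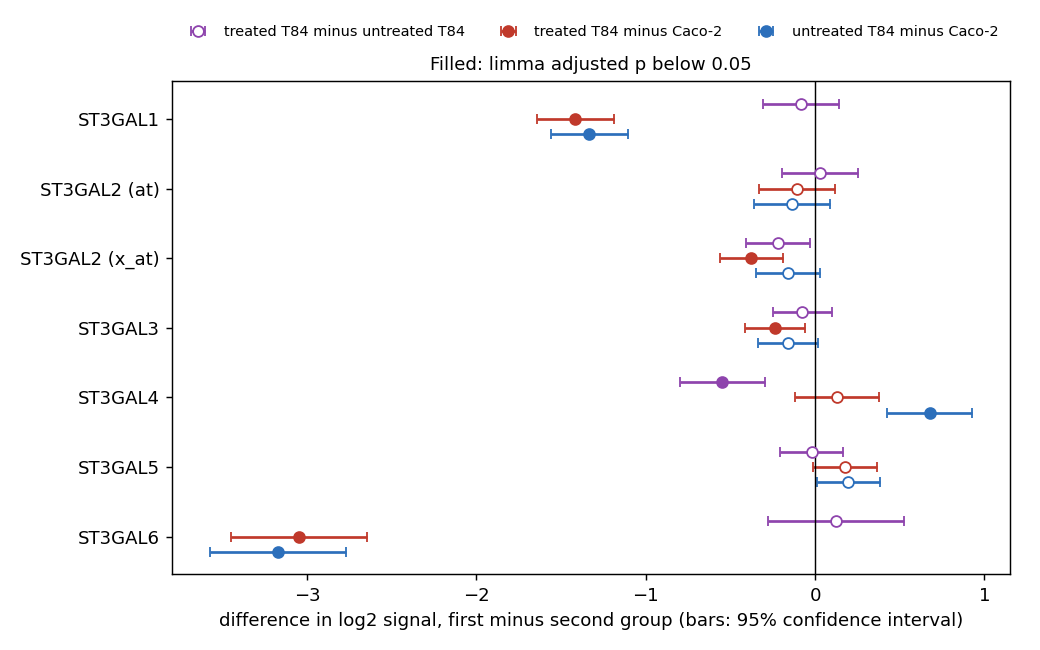
Differences between groups in log2 signal (horizontal axis, bars 95% confidence intervals) of the 7 ST3GAL probe sets in the 3 comparisons; filled points have a limma adjusted p below 0.05. ST3GAL1 and ST3GAL6 are lower in both T84 groups than in Caco-2, and ST3GAL4 alone is called between treated and untreated T84.

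Small differences from Caco-2 depended on the scale. Centring each array on the mean of 51 ribosomal protein probe sets moved the median of all probe sets to 0.14 in treated against untreated T84, 0.46 in treated T84 against Caco-2 and 0.31 in untreated T84 against Caco-2. The calls over all probe sets went from 244 higher and 330 lower to 911 and 180 in treated T84 against Caco-2, from 245 and 305 to 837 and 195 in untreated T84 against Caco-2, and from 55 and 73 to 289 and 52 within T84. On that scale ST3GAL3 in treated T84 was called above Caco-2, not below it (0.21; limma adjusted p = 0.0454). The marked ST3GAL2 probe set turned to 0.07 (0.457) and the unmarked one to a called 0.33 (0.00762). ST3GAL4 and ST3GAL5 became called above Caco-2 in treated T84 (0.57 and 0.62; limma adjusted p = 0.00137 and 8.11e-05), as did ST3GAL5 in untreated T84 (0.49; 0.000516). Taken relative to the median of all probe sets, the values are the same on both scales by construction, since centring moves every probe set of an array by 1 constant. They were ST3GAL3 at -0.26, the marked ST3GAL2 probe set at -0.40 and ST3GAL4 at 0.11. The calls of ST3GAL1, ST3GAL6 and the ST3GAL4 fall kept their direction and passed on both scales (ST3GAL4 in treated against untreated T84 at -0.40, limma adjusted p = 0.0396). Ribosomal genes themselves moved here. Their mean moved by far less than RPL28, a gene close to ST3GAL1 in profile, which stood at -2.56 in treated T84 against Caco-2. In that comparison the centring moved the median of all probe sets from 0.02 to 0.46.

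The genes that make the acceptors, donate the sialic acid or compete for the same galactose were counted from 7 lists, 1 probe set per gene, 64 genes in all. Within T84, 3 of the lists had no call in either direction in limma: 5 O-glycan core enzymes, 13 makers of type 1 and type 2 chains, and 10 lactosylceramide and ganglioside enzymes. Each of these 3 also had no gene at an unadjusted p below 0.05. The other lists held 5 of the 64 genes called, 2 higher and 3 lower, a share no larger than the 10.2% of all probe sets.

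Those 5 came from the other 4 lists. Of 8 fucosyltransferases, FUT4, which builds Lewis x, rose by 0.56 ± 0.10 log2 units (SE; limma adjusted p = 0.00797, n = 3 per group) and 7 did not pass. Of 14 other sialyltransferases, ST6GALNAC2, which adds sialic acid to the inner GalNAc of O-glycans, rose by 1.24 ± 0.12, ST6GALNAC1, which makes sialyl-Tn, fell by 0.43, and 12 did not pass. Of 8 genes that supply or remove sialic acid, GNE, which starts its synthesis, fell by 1.02 and 7 did not pass. Of 10 sulfotransferases, GAL3ST4, which puts sulfate on the 3-position of galactose that ST3GAL enzymes also use, fell by 0.69 and 9 did not pass. The list medians lay between -0.08 and 0.19, beside -0.01 over all probe sets. With ribosomal centring 15 of the 64 were higher in treated T84, against 2 without it.

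Against Caco-2, treated T84 had 18 of the 64 pathway genes higher and 10 lower, and untreated T84 had 19 and 10, near the shares of all probe sets (45.6% and 43.7% called). The O-glycan core list had 3 of 5 higher and none lower in both T84 groups, also at an unadjusted p below 0.05, where 19.4% and 19.5% of all probe sets were called higher. These are C1GALT1, the core 1 synthase that makes the acceptor of ST3GAL1 and ST3GAL2, its chaperone C1GALT1C1, and GCNT3, which branches core 1 to core 2. In untreated T84 they were higher by 1.88 ± 0.51, 0.95 ± 0.12 and 1.98 ± 0.13 log2 units (SE; limma adjusted p = 0.016, 0.000238 and 4.61e-06, n = 3 per group). The C1GALT1 call in untreated T84 was lost without untreated T84 replicate 1 (0.0616) or 2 (0.0602). In treated T84 the values were 2.36 ± 0.51, 1.14 ± 0.12 and 2.02 ± 0.13. ST3GAL1, which uses the core 1 acceptor, went the other way.

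The chain and fucose lists stood as follows. Of 13 chain makers, 3 were higher and 2 lower in treated T84, and 3 and 1 in untreated T84. B3GALT5, the type 1 chain enzyme of colon, was higher by 0.78 ± 0.11 in both (limma adjusted p = 0.000303 and 0.000343, n = 3 per group). B3GNT3, which extends lactosamine chains on core 1, was higher by 0.76 ± 0.14 and 0.91 ± 0.14. The galactosyltransferase B4GALT1, which makes type 2 chains, was lower by a difference of -0.35 and -0.37, calls that ribosomal centring ended, as did leaving out the 3 arrays that deviated together (limma adjusted p = 0.101 and 0.0677). In treated T84 the B4GALT1 call was also lost without any one treated array (0.0667, 0.0683 and 0.0509 without replicates 1 to 3) or Caco-2 replicate 1 (0.0612) or 2 (0.069), and in untreated T84 without untreated T84 replicate 1 (0.0593) or Caco-2 replicate 2 (0.0592). Of 8 fucosyltransferases 4 were higher and none lower in treated T84, with 1 lower at an unadjusted p below 0.05, and 4 and 1 in untreated T84. FUT3, the Lewis enzyme that completes sialyl Lewis a, was higher by 3.04 ± 0.18 and 3.27 ± 0.18. FUT2, the secretor enzyme, was higher by 0.85 ± 0.15 and 1.02 ± 0.15, and FUT4 was lower in untreated T84 by a difference of -0.83 ± 0.10.

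In the ganglioside list, 1 of 10 was higher and 1 lower in each T84 group. B3GALT4, which extends gangliosides, was higher by 0.40 ± 0.11 and 0.55 ± 0.11 (SE), and B4GALT5, the lactosylceramide synthase before ST3GAL5, lower by a difference of -0.36 and -0.34. Ribosomal centring ended both B4GALT5 calls, as did leaving out the 3 arrays that deviated together (limma adjusted p = 0.116 and 0.076). The B3GALT4 call in treated T84 was lost without treated T84 replicate 3 (0.0615) or Caco-2 replicate 2 (0.055) or 3 (0.0529), and the B4GALT5 calls without treated T84 replicate 3 (0.0508 in treated T84), or without untreated T84 replicate 2 (0.0713) or Caco-2 replicate 2 (0.0661) in untreated T84. Of 14 other sialyltransferases 2 were higher and 3 lower in treated T84, and 3 and 4 in untreated T84. ST6GALNAC1 was higher by 3.93 ± 0.05 and 4.36 ± 0.05. ST6GALNAC3 and ST6GALNAC6, which act on chains already capped in alpha-2,3 linkage, were lower, by differences of -2.96 and -3.09 for the former and -1.40 and -1.52 for the latter. Of 8 supply and removal genes the counts were 3 and 2, and 3 and 1. The transporter gene SLC35A1, which brings CMP-sialic acid into the Golgi, was higher by 1.41 ± 0.23 and 1.00 ± 0.23. GNE was higher by 1.10 ± 0.11 and 2.11 ± 0.11, and the lysosomal sialidase gene NEU1, on a probe set with the cross-hybridisation mark, lower by a difference of -1.45 and -1.06. Of 10 sulfotransferases 2 were higher and 2 lower in each. CHST7, a sulfotransferase of GlcNAc and GalNAc, was higher by 3.08 ± 0.11 and 2.90 ± 0.11 (limma adjusted p = 7.28e-08 and 1.37e-07, n = 3 per group). GAL3ST4 was higher by 0.52 and 1.21, and GAL3ST1, which sulfates glycolipids, lower by a difference of -1.02 and -0.98. List medians were 1.14 and 0.95 for the O-glycan core genes in treated and untreated T84 against Caco-2, and between -0.03 and 0.23 for the other lists, beside 0.02 over all probe sets in both.

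**Figure D4:**
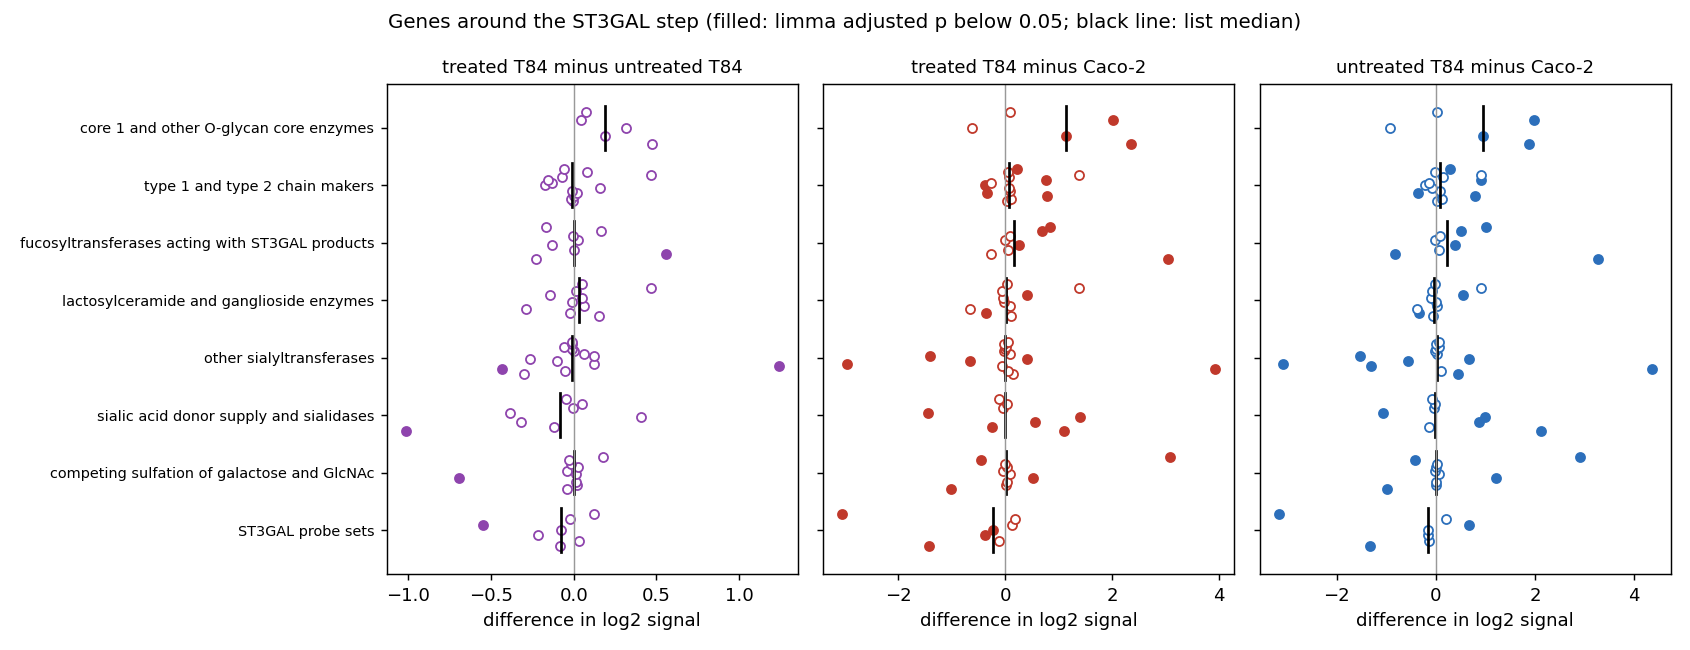
Difference in log2 signal (horizontal axes) of each measured gene of the 7 pathway lists and of the 7 ST3GAL probe sets in the 3 comparisons; filled points have a limma adjusted p below 0.05 and black lines are list medians. The medians lie near 0 except for O-glycan core enzymes against Caco-2, at 1.14 and 0.95.

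Profiles over the 9 arrays were compared by Pearson's r, as a description, since the arrays fall into 3 groups and share their processing. The genes most like ST3GAL4 were SDC1, the gene of the cell surface proteoglycan syndecan 1 (r = 0.975), ERBB3, a receptor tyrosine kinase gene (0.932), and SLC35E1 (0.909). Treated minus untreated T84 gave differences of -0.52, -0.82 and -0.33 log2 units for these 3. Their r with ST3GAL4 over the 6 T84 arrays was 0.978, 0.958 and 0.952. These 6 are among the 9 arrays that picked the genes, and they hold both treated and untreated cells. A high r was therefore favoured by the choice. The genes most like ST3GAL6 were LAYN, a hyaluronan receptor gene (0.997), PTN, a heparin-binding growth factor gene whose probe set carries the cross-hybridisation mark (0.996), and the sialyltransferase gene ST6GALNAC3 (0.995). LAYN was at -1.63, PTN at -4.78 and ST6GALNAC3 at -2.96 in treated T84 against Caco-2. Over the 6 T84 arrays, where ST3GAL6 was near the floor, their r with ST3GAL6 was 0.81, 0.14 and 0.79.

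The genes most like ST3GAL1 were CXCL14 (r = 0.996), CHST13 (0.996) and RPL28 (0.995), each lower in T84 than in Caco-2 by a difference beyond 2 log2 units. Over the 6 T84 arrays CHST13 had an r of -0.37 with ST3GAL1. The marked ST3GAL2 probe set was most like POFUT1 (0.964), MAN2B1 (0.957) and MGAT3 (0.954), at -0.23, -0.25 and -0.41 in treated against untreated T84. Among the genes most like ST3GAL3 were ARF1 (0.933) and EIF3F (0.921), the latter on a probe set with the cross-hybridisation mark. ST3GAL5 was most like CXCR3 (0.947), SRSF9 (0.926) and PDGFB (0.901). These last 5 had differences of at most 0.36 in size in every comparison.

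**Figure D5:**
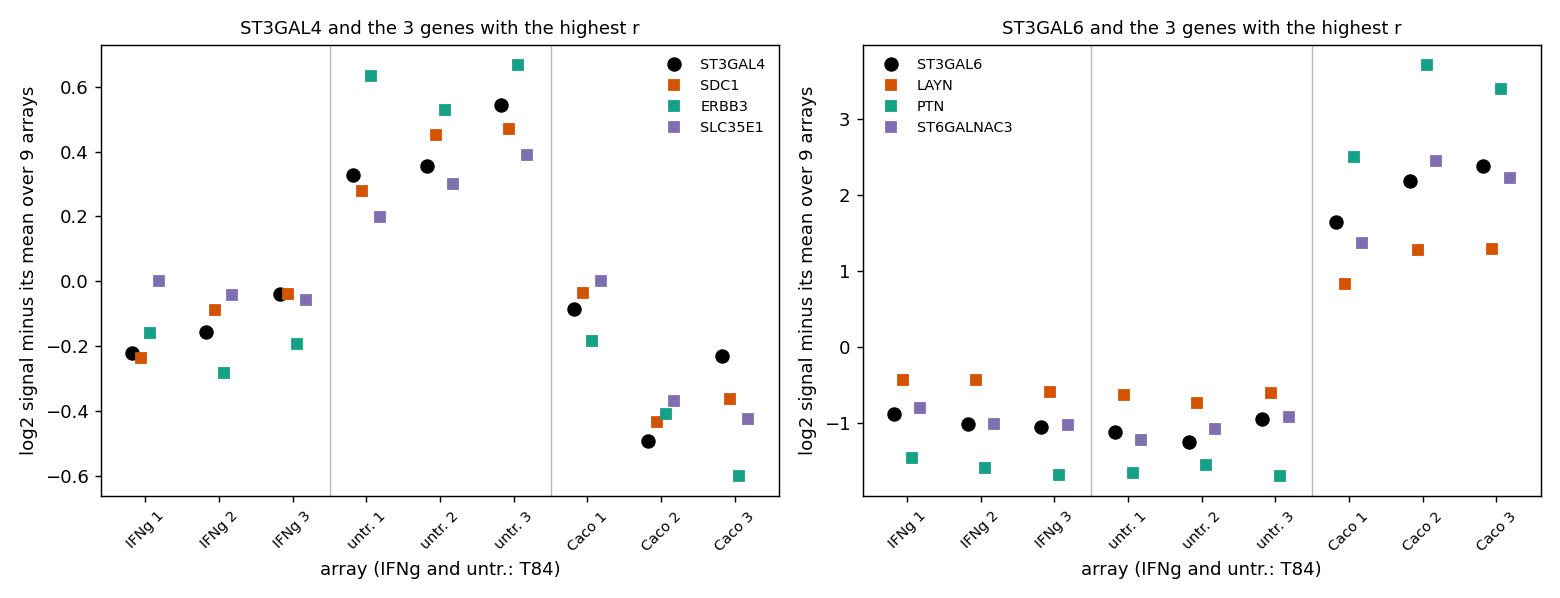
Log2 signal minus its mean over the 9 arrays (vertical axis) for ST3GAL4 (left) and ST3GAL6 (right) with the 3 genes of highest Pearson's r, by array. ST3GAL4 and its neighbours are highest in untreated T84, and ST3GAL6 and its neighbours in Caco-2.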

How the data were processed

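Total RNA (Trizol; 0.5 ug, biotin-labelled cRNA by the Affymetrix protocol, per the labels' protocols) was read on 9 arrays. The deposited log2 signals per probe set were made by the authors with RMA, per the submitters' processing notes. As usually run, RMA subtracts background, quantile-normalizes the arrays and summarises probes on a log2 scale, which compresses differences of dim probe sets. The labels name no RMA version, build or filter. No further normalization was applied. Probe sets were matched to RefSeq symbols by unversioned identifier: 1043 of 1259 had 1 symbol, for 927 genes. One limma fit (limma 3.58.1, R 4.3.3) with group as the only factor covered all 9 arrays, and p-values were adjusted over all 1259 (Benjamini-Hochberg, threshold 0.05; 6 residual and 2.12 prior degrees of freedom). Errors of differences are standard errors, intervals are at 95%, and errors of means are SDs. The fit was also run on simulated data with independent noise on each array, for treated against untreated T84 only. Some real arrays deviated together, which such a simulation does not cover. A gene with several probe sets was represented in lists by the one with the highest mean.

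The rule for names took all ST3GAL probe sets, allowed at most 5 called genes per list and comparison by adjusted p (not all were named), check genes, and for each member the 3 named genes of highest r. Marker genes were named in addition, and 1 gene among the nearest profiles is not reported here. Probe set suffixes were read by the Affymetrix convention (_x_at may cross-hybridise, _s_at and _a_at are shared among transcripts). Members and lists were chosen with earlier results of these data known. Alternatives were a fit on 6 arrays, a block for the replicate number, other moderation, array weights, other scaling, a filter on dim probe sets, thresholds and single arrays left out; leaving out 3 arrays together was added after seeing the data. The labels state no pairing by replicate number, and deviations of same-numbered arrays correlated from -0.64 to 0.56 over all groups. Between treated and untreated T84 they correlated at 0.39, -0.02 and 0.56 for replicates 1 to 3. Differently numbered T84 arrays gave -0.51 to 0.40. The block used the same numbers in Caco-2, and a pairing within T84 alone was not fitted. Motifs were searched on both strands of 250 bases. Tools were Python 3.11.15, pandas 2.3.3, scipy 1.17.1 and matplotlib 3.10.9.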

Additional observations from a re-analysis of the deposited data

How the results depend on the processing

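The 21 results of single ST3GAL probe sets were each recomputed in 20 or 21 settings, 438 values in all, of which 412 kept their call or stayed uncalled, 14 lost a call, 9 gained one and 3 changed sign with a call on at least 1 side. ST3GAL6 has no value in the filter on dim probe sets, since its mean lies in the dimmest 25% of probe sets; in untreated T84 against Caco-2 that filter left 1 ST3GAL probe set lower. The 3 all came with ribosomal centring in treated T84 against Caco-2: 0.33 and 0.066 for the ST3GAL2 probe sets (the first uncalled before and called after, the second the reverse) and 0.21 for ST3GAL3, called on both sides. That centring gave 4 ST3GAL probe sets higher and 2 lower there and 2 higher in untreated T84 against Caco-2. It gave 289, 911 and 837 probe sets higher over the whole table in the 3 comparisons (treated against untreated T84, and treated and untreated T84 against Caco-2), with 180 and 195 lower in the last 2. Of the pathway genes it gave 15, 51 and 46 higher, and 5 lower in treated T84 against Caco-2; the cause was not tested. In treated against untreated T84, 2 ST3GAL probe sets were lower with only the 6 T84 arrays or with array weights, and 0 with quantile normalization or an adjusted p below 0.01. Array weights also gave 87 higher and 144 lower over the table there and 368 higher in treated T84 against Caco-2, with 1 ST3GAL probe set higher. The stricter threshold left 36 lower in T84. Median centring or an adjusted p below 0.1 gave 2 ST3GAL probe sets higher in untreated T84 against Caco-2. Leaving out single arrays gave 0 to 1 ST3GAL probe sets lower and 40 to 108 lower over the table in treated against untreated T84, with 40, 48 and 44 without treated T84 replicate 2, treated T84 replicate 3 and untreated T84 replicate 3, and 108 without Caco-2 replicate 1. With the replicate block, 32 of 33 results were unchanged, taking the 21 single probe set results together with counts of probe sets. For a count, unchanged means only a similar number. The 1 that changed, ST3GAL3 in treated T84 against Caco-2, lost its call (-0.23, limma adjusted p = 0.079). The table had 50 higher and 59 lower within T84, beside 55 and 73 in the main fit. Signal near the floor limits ST3GAL6 in T84.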
